A study of Homo sapiens with 9 samples.

Results

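The genes described are those for the proteins of the mitochondrial ribosome, which carry the symbols MRPL for the large subunit and MRPS for the small subunit. They were chosen by symbol alone (MRPL or MRPS, a number and at most 1 letter from A to C) with at least 10 counts in every library. The pattern matched 78 of 59452 rows of the gene table, and 78 of 78 passed the minimum, 49 with a large subunit symbol and 29 with a small subunit symbol. The cells were MDA-MB-453, an established human breast cancer line that the labels give as triple-negative and of wild-type genotype, grown in DMEM with 10% FBS. There were 9 RNA-seq libraries in 3 groups of 3: attached cells with vehicle, cells in forced suspension with vehicle, and cells in forced suspension with AT-0174 at 10 µmol/L, all after 48 hours. Forced suspension means a dish coated with poly-HEMA, a polymer to which cells cannot stick. AT-0174 inhibits both TDO2 and IDO1, the enzymes that open the ring of tryptophan on the way to kynurenine, and the vehicle was DMSO. Every group is the same line without genetic change, and no attached group with AT-0174 was analysed here.

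The mitochondrial ribosome makes the few proteins encoded by the mitochondrial genome, all of them core subunits of the respiratory chain and the ATP synthase. Its rRNAs, MT-RNR1 (12S, small subunit) and MT-RNR2 (16S, large subunit), are transcribed inside the organelle, whereas its proteins are encoded in the nucleus, made in the cytosol and imported. Many of the proteins descend from bacterial ribosomal proteins, and the others were added during the evolution of mitochondria. By their place in the mature particle, the 78 members comprised 30 large subunit proteins with a bacterial homolog, 21 mitochondria-specific large subunit proteins, 16 small subunit proteins with a bacterial homolog and 10 mitochondria-specific small subunit proteins. MRPS30 and MRPS18A sit in the large subunit despite their symbols and were counted there in this division. MRPS36, the remaining member, is a component of the 2-oxoglutarate dehydrogenase complex and not of the mature ribosome.

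Library totals were between 36649997 and 48019126 estimated counts, and the TMM factors that scale libraries to each other were between 0.973 and 1.023. The epithelial markers KRT8, KRT18 and EPCAM averaged 889, 650 and 309 in attached cells, in CPM (counts scaled to a common library total), and ESR1 and PGR had at most 4 and 18 counts in any library. ERBB2 averaged 1052 CPM, so of the 3 receptors of the triple-negative definition its mRNA was not low. Of the markers of other cell types, CD3E and DCN had 0 counts and PTPRC, PECAM1 and VWF at most 13, whereas COL1A1 averaged 137 CPM in attached cells. Of the other line markers reported here, FOXA1 rose in suspension (log2 fold change 0.26) and CDH3 fell (−0.68, edgeR adjusted p = 0.000823). COL1A1 also fell, by 0.28 on the log2 scale (adjusted p = 0.00182), and the part of these changes in the members' results was not tested.

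The members lie on 21 chromosomes, and all 78 matched the GRCh38 annotation. Paired starts were counted only where the neighbour's start lies upstream, so pairs of genes that overlap at their starts are left out. Such closely paired starts were more frequent among the members than among all protein-coding genes. Of 78 members, 17 (21.8%) have a protein-coding neighbour on the other strand that starts at most 1000 bases upstream. Of 20033 protein-coding genes, 1710 (8.5%) do. That background includes genes not tested here, and the share among tested genes was not taken. One such pair joins the subunits, since MRPL46 (large) and MRPS11 (small) are transcribed away from each other from starts 63 bases apart on chromosome 15. RefSeq promoter sequences (GRCh38.p14, 250 bases before to 50 after the start) were found for 69 of the 78 members. The letters CCGGAAG, the core bound by ETS-family factors, occurred on either strand in 29 of 69 member promoters (42.0%), in 10.7% of all 27305 promoters and in 19.5% of those of tested genes. The letters AAGATGGCG, read by YY1, occurred in 13 of 69 (18.8%), against 1.8% of all promoters and 3.9% of those of tested genes. The letters GCATGCGC, part of the motif of NRF1, a regulator of nuclear genes for mitochondria, occurred in 6 of 69 (8.7%), against 3.3% and 5.7%, and the longer NRF1 palindrome that contains these letters in 1 (1.4%), against 1.4% and 2.4%. For the E-box CACGTG the member share was 8.7%, against 7.4% and 10.2%, and for CCAAT it was 29%, against 35.7% and 37.3%. Of these motifs, the ETS core and the YY1 motif were the ones at more than 2 times the share in tested genes. These are matches of letters and not sites of measured binding. The 100 bases before the RefSeq start are shown for the 3 members with the smallest adjusted p in suspension, at chr17:75012570-75012669 (plus strand) for MRPL58, chr3:131502972-131503071 (minus strand) for MRPL3 and chr12:27710732-27710831 (plus strand) for MRPS35, and the whole gap between MRPL46 and MRPS11 at chr15:88467391-88467452 (read on the minus strand) shows how short a shared start region can be. Capitals mark CCGGAAG.
MRPL58: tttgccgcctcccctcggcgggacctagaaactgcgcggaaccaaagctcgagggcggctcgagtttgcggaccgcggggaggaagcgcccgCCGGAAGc
MRPL3: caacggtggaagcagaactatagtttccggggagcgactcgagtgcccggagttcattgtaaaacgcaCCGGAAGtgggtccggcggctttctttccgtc
MRPS35: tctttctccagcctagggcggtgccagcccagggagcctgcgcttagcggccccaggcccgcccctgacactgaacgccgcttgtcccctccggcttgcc
MRPL46 and MRPS11 gap: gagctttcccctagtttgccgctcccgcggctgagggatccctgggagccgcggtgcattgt
Of the 23 members that rose in suspension and have a promoter sequence, 11 held the ETS core and 4 the YY1 motif. These shares were close to those of all members with a promoter sequence (29 and 13 of 69). CCAAT was held by 6 of the 23, the E-box by 1 and GCATGCGC by 0. None of these motifs was found in the 300 bases of MRPS35 or of MRPS5, the member that fell, which says only that these letters are not in that window.

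Levels were compared between genes as TPM, which divides estimated counts by transcript length and scales every library to the same total. In attached cells MRPL41, a mitochondria-specific protein of the large subunit, was the highest member at 387 ± 4.14 TPM (SD, n = 3). MRPS7, which binds the 12S rRNA, followed at 348 ± 14.7 TPM and MRPS34, a mitochondria-specific small subunit protein, at 282 ± 14.5 TPM. The lowest were MRPL50 at 4.9 ± 0.18 TPM, MRPS17 at 15.9 ± 1.21 TPM and MRPL1, a protein of the L1 stalk beside the exit site, at 18.8 ± 1.57 TPM. The highest 3 did not overlap each other by their SDs, and MRPS17 and MRPL1 came closest to doing so among the lowest 3. The range was 78.9-fold although the particle holds most of these proteins in single copy, but 52 of 78 members lay within 2-fold of the member median of 65.6 TPM. The median over all 15528 tested genes was 12.57 TPM. Large subunit symbols had a median of 88.7 TPM and small subunit symbols 49.0 TPM. The order of the members hardly moved between groups, with a Spearman rho of 0.994 between the attached and suspended vehicle means of the 78 genes, given as a description. Member transcripts were short, with a median effective length of 905 bases against 1923 over tested genes.

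**Figure D1:**
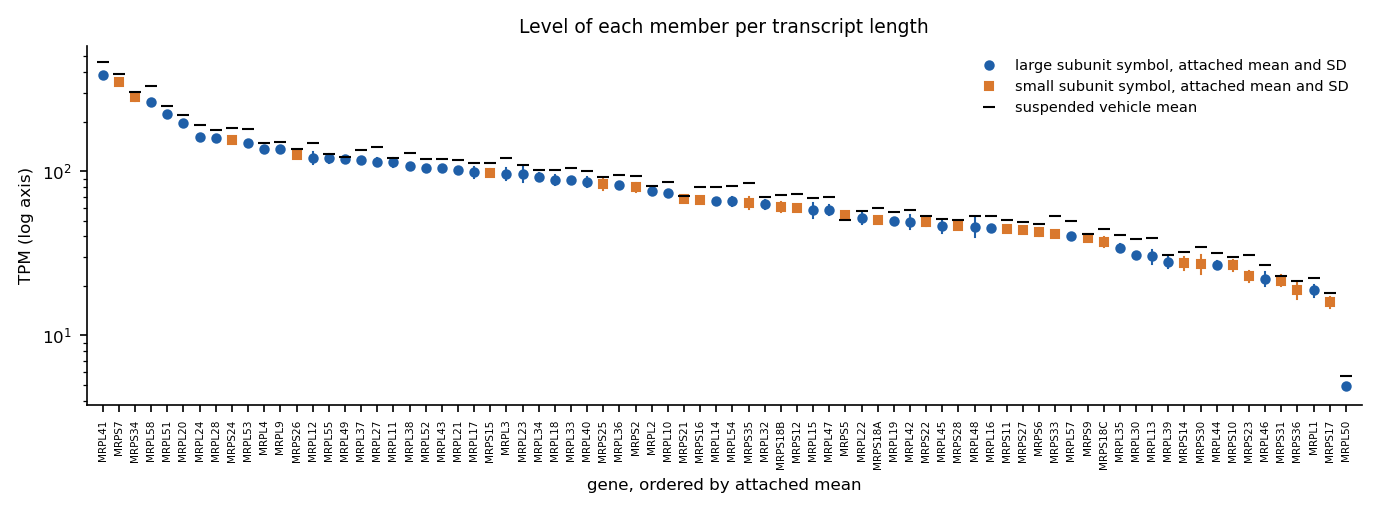
Level of each of the 78 members in TPM on a log axis, ordered by the mean of the 3 attached libraries, with circles for large and squares for small subunit symbols, vertical lines for the SD (n = 3) and dashes for the mean of the 3 suspended vehicle libraries. Levels run from 387 TPM for MRPL41 to 4.9 TPM for MRPL50, and the suspended means follow the same order closely.

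Most member loci gave 1 dominant transcript. The leading transcript made up a median of 82.2% of a member's TPM in attached cells, at least 90% in 28 members and under 50% in 10. In 0 of 78 members did the share of the leading transcript differ by over 10 percentage points without overlap between suspended and attached libraries, or between AT-0174 and vehicle. Smaller shifts without overlap did occur. From attached to suspended vehicle libraries the mean share went from 66.8% to 76.7% in MRPL49, from 52.7% to 44.8% in MRPS33 and from 87.6% to 91.8% in MRPL3. With AT-0174 against vehicle it went from 45.2% to 49.7% in MRPS12 and from 59.7% to 55.5% in MRPS25. Other rows can share reads with a member. MRPL20-AS1, on the opposite strand, held 31.99% as many counts as MRPL20, the pseudogene MRPS31P5 17.3% as many as MRPS31, and each further row named after a member under 5%. In a later annotation than the authors used, 18 members share exonic bases with another gene on the same strand and 30 with one on the opposite strand. The values of these members are therefore less certain than the others. Members described below that overlap another gene on the same strand include MRPS5 (3201 bases), MRPL12 (701), MRPL30 (564) and MRPS17 (471). Where several genes overlap, the largest overlap is given.

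The first comparison asked how the members differed between suspended and attached cells, both with vehicle. Most members had slightly higher values in suspension: 69 of 78 had a log2 fold change above 0, with a median of 0.09, or 1.065-fold, against a median of 0.00 over all tested genes. Of the 78, 25 rose (edgeR adjusted p under 0.05), led by MRPL58, MRPS35, MRPL3 and MRPL30, and 1 fell, MRPS5. That is 33.3% of members called, where 21.2% of all 15528 tested genes were called, and 32.1% called higher, where the background was 10.4%. Members are more highly expressed than most genes, and among the 8365 tested genes within the members' range of mean level, 29.4% were called and 15.7% called higher. In 42 of 78 members (53.8%) the 3 suspended vehicle libraries all lay above the 3 attached ones, against 19.4% of tested genes. In bulk RNA, fewer cells of a kind and less RNA per cell cannot be told apart. The changes were small, since no member moved by more than 20.02% (MRPS30).

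Within the large subunit, 17 of 49 symbols rose and none fell (none by DESeq2 or limma-voom, and none at an unadjusted p under 0.05), 46 of 49 had a value above 0 and the median log2 fold change was 0.10. Within the small subunit, 8 of 29 rose and 1 fell, 23 of 29 had a value above 0 and the median was 0.06. With MRPS30 and MRPS18A moved to the large subunit and MRPS36 left out, 18 of 51 large and 7 of 26 small subunit genes rose. The 21 mitochondria-specific large subunit genes were all above 0, with 8 rises and a median of 0.12. The 30 large subunit genes with a bacterial homolog had 10 rises and a median of 0.09. The 16 small subunit genes with a bacterial homolog had 4 rises, 1 fall and a median of 0.06, and the 10 mitochondria-specific small subunit genes had 3 rises and a median of 0.04. These are counts and medians side by side, and no test was made of the difference between subunits or classes.

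**Figure D2:**
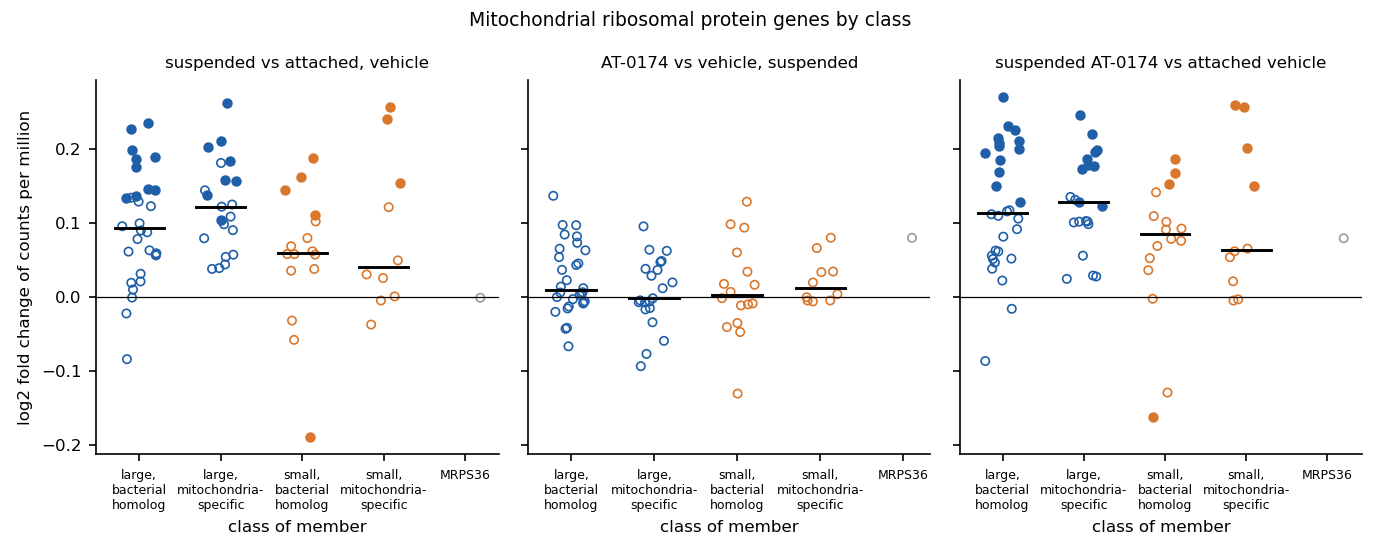
Log2 fold change of each member in the 3 comparisons, by class, with blue for the large subunit, orange for the small subunit and grey for MRPS36. Filled points have an edgeR adjusted p under 0.05 and bars are medians. Points lie mostly above 0 in the left and right panels, where suspended cells are set against attached cells (25 and 30 rises), and around 0 with no filled point in the middle panel.

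The subunits were followed library by library as the median log2 difference from the attached mean. For large subunit symbols it was 0.02, 0.03 and −0.04 in attached replicates 1 to 3, 0.10, 0.11 and 0.11 in suspended vehicle and 0.16, 0.13 and 0.09 in suspended AT-0174. For small subunit symbols it was 0.02, 0.03 and −0.04, then 0.10, 0.06 and 0.05, then 0.10, 0.09 and 0.07. All 6 suspended libraries stood above all 3 attached ones in both subunits. The large value minus the small value was between −0.004 and 0.007 in attached libraries, −0.006, 0.049 and 0.059 in suspended vehicle libraries and between 0.017 and 0.058 with AT-0174, so that in suspended vehicle replicate 1 the subunits did not part. Per transcript length, the summed TPM of large over small subunit symbols was 2.21 ± 0.0091 (SD, n = 3) in attached cells and 2.26 ± 0.0395 in suspended vehicle cells, and the lowest suspended ratio, 2.229, lay just above the highest attached one, 2.221.

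Attached replicate 3 stood apart. Only 15 of 78 members were above the attached mean there, against 52 and 58 in the other two attached libraries and 64 to 73 in the suspended ones. Transcripts of the mitochondrial genome took 9.32% of its counts, against 7.69% and 7.56% in attached replicates 1 and 2, 4.05% to 4.34% in suspended vehicle libraries and 3.73% to 5.51% with AT-0174. The mitochondrial share thus moved against the members' values, and its part in the result was not tested. Without attached replicate 3, 8 members were called, all higher, and the median log2 fold change was 0.07. Without suspended vehicle replicate 1, 2 or 3, 17, 9 and 13 members were called and the median was 0.10, 0.10 and 0.09. All tested genes lost calls as well. Without attached replicate 3, 10.3% of members and 12.2% of tested genes were called, and without suspended vehicle replicate 2, 11.5% and 12.4%, so in neither did the members' share called in either direction exceed the background. All of those member calls were higher, where 5.86% and 5.84% of tested genes were called higher. Nor did it at an adjusted p under 0.01, with 7.69% of members and 9.05% of tested genes. With library totals as the only scaling 41 members were called (40 higher), and with totals that leave out the mitochondrial genome 19 were. The share of all calls that were higher was 49.1% in the main analysis and 69.2% and 41.5% under these scalings.

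**Figure D3:**
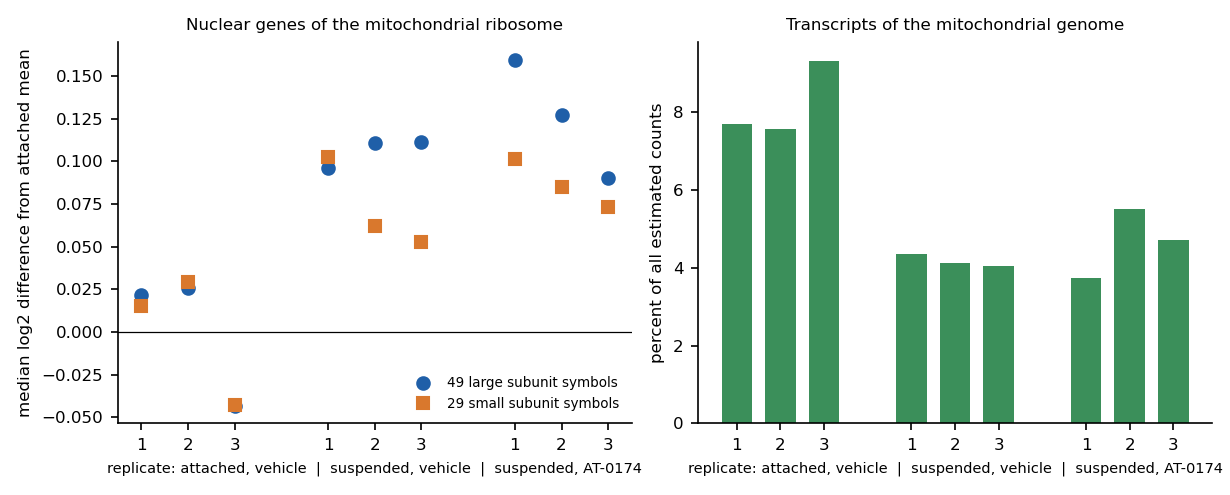
Left, median log2 difference of the 49 large (circles) and 29 small subunit symbols (squares) from their attached mean, in each of the 9 libraries. Right, percent of all estimated counts taken by transcripts of the mitochondrial genome, as bars. Attached replicate 3 has the lowest member medians (−0.04) and the highest mitochondrial share (9.32%).

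The large subunit members with the clearest rises have varied roles. MRPL58 is a peptidyl-tRNA hydrolase built into the large subunit that can free stalled peptides (chr17:75012670-75021261, plus strand). It had 142, 137 and 135 CPM in attached libraries, 157, 160 and 161 CPM in suspended vehicle libraries and 161, 162 and 153 CPM with AT-0174. Every suspended library was above every attached one, and MRPL58 rose by 15.1% in suspension (log2 fold change 0.20 ± 0.033 (SE), edgeR adjusted p = 0.0017). MRPL3, a core protein that reaches toward the peptidyl transferase center (chr3:131462212-131502983, minus strand), had 107, 108 and 97.2 CPM attached, 123, 123 and 119 CPM suspended and 127, 128 and 121 CPM with AT-0174. Its groups did not overlap, with the lowest value in attached replicate 3, and it rose by 17.1% (log2 fold change 0.23 ± 0.042, adjusted p = 0.00344). MRPL30 (chr2:99181152-99199561, plus strand) had 42.0, 41.0 and 41.2 CPM attached, 45.5, 50.6 and 50.1 CPM suspended and 47.9, 46.1 and 48.1 CPM with AT-0174. It also rose without overlap, by 17.8% (log2 fold change 0.24 ± 0.046, adjusted p = 0.00407). MRPL14, which lies on the face that meets the small subunit (chr6:44113451-44127452, minus strand), rose by 13.8% (0.19 ± 0.041, adjusted p = 0.00761), from 36.8 to 38.7 CPM attached to 42.3 to 44.3 CPM suspended. MRPL58, MRPL3, MRPL30 and MRPL14 stayed called with any single library left out and under each other alternative run for single genes.

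MRPS30, whose protein belongs to the large subunit (chr5:44808947-44820428, plus strand), had the largest log2 fold change of all members. It had 35.6, 35.7 and 30.3 CPM attached, 38.7, 41.5 and 41.5 CPM suspended and 39.8, 38.7 and 37.1 CPM with AT-0174. Attached replicate 3 was far below the other two, and the rise was 0.26 ± 0.061 (adjusted p = 0.0102). Without that library the log2 fold change was 0.19. MRPL12 forms the flexible stalk that recruits translation factors and is also known to bind the mitochondrial RNA polymerase (chr17:81703367-81707517, plus strand). It had 75.8, 78.4 and 68.5 CPM attached, 82.6, 89.3 and 82.0 CPM suspended and 92.8, 86.4 and 81.2 CPM with AT-0174. The groups did not overlap and it rose by 0.19 ± 0.059 (adjusted p = 0.038). That call was lost when any of 5 of the 6 libraries was left out, with adjusted p between 0.053 and 0.15, and without attached replicate 3 the log2 fold change was 0.13. MRPL24 (0.13 ± 0.038, adjusted p = 0.0247) and MRPL41 (0.16 ± 0.045, adjusted p = 0.0269) rose as well. The MRPL24 call was lost without 3 of the 6 libraries in turn (adjusted p between 0.0631 and 0.0957) and the MRPL41 call without 5 of the 6 (between 0.061 and 0.0914). MRPL44, a mitochondria-specific protein with a ribonuclease III fold, had 31.3, 29.3 and 29.1 CPM attached and 32.9, 32.6 and 32.1 CPM suspended, which was higher in each library but not past the threshold (0.12 ± 0.047, adjusted p = 0.0811).

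In the small subunit, the 2 clearest rises were mitochondria-specific proteins. MRPS35 (chr12:27710822-27756295, plus strand) had 75.02, 72.0 and 66.9 CPM attached, 83.1, 87.2 and 85.3 CPM suspended and 89.2, 81.6 and 84.8 CPM with AT-0174. It rose by 19.5% with no overlap (0.26 ± 0.047, adjusted p = 0.00299). MRPS33 (chr7:141002610-141015228, minus strand) had 15.9, 16.8 and 16.2 CPM attached, 19.7, 18.9 and 19.2 CPM suspended and 20.3, 18.9 and 19.3 CPM with AT-0174, a rise of 18.2% (0.24 ± 0.050, adjusted p = 0.00577). Both calls held with any single library left out. MRPS12, a bacterial-type protein at the decoding center (chr19:38930944-38933168, plus strand), had 34.9, 36.6 and 34.5 CPM attached, 38.4, 42.4 and 39.9 CPM suspended and 42.4, 38.1 and 36.3 CPM with AT-0174. It rose in suspension (0.19 ± 0.059, adjusted p = 0.0386), and that call was lost without 5 of the 6 libraries in turn, at adjusted p between 0.0501 and 0.139.

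MRPS5 went the other way. It is a bacterial-type protein near the mRNA entrance of the small subunit (chr2:95085369-95122006, minus strand), with 56.0, 55.8 and 58.4 CPM attached, 52.3, 46.4 and 50.7 CPM suspended and 49.9, 52.2 and 53.6 CPM with AT-0174. Every suspended library was below every attached one, and MRPS5 fell by 12.3% (log2 fold change −0.19 ± 0.048, adjusted p = 0.0161). In the later annotation it shares 3201 exonic bases with another gene on the same strand, so its values are less certain. The call was lost without attached replicate 3 (adjusted p = 0.0634) or suspended vehicle replicate 2 (adjusted p = 0.0786). MRPS22, a mitochondria-specific small subunit protein, was the member nearest to no difference besides MRPS36 and MRPL22, with 36.1, 38.2 and 35.6 CPM attached, 40.3, 33.5 and 36.3 CPM suspended and a log2 fold change of 0.00 ± 0.061 (adjusted p = 0.992). MRPS36, the protein outside the ribosome, had 14.9, 17.1 and 14.7 CPM attached and 14.1, 16.4 and 16.1 CPM suspended (0.00 ± 0.072, adjusted p = 0.997). The abundant MRPS7 and MRPS34 had log2 fold changes of 0.06 (adjusted p = 0.219) and 0.03 (adjusted p = 0.57), and the scarce MRPL50, MRPS17 and MRPL1 had 0.10, 0.06 and 0.10 (adjusted p between 0.259 and 0.543).

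The MRPS18 genes are paralogs whose proteins occupy different places, MRPS18A in the large subunit and MRPS18B and MRPS18C in the small one. MRPS18A had 35.7, 35.2 and 34.3 CPM attached, 39.2, 39.3 and 36.3 CPM suspended and 41.7, 40.8 and 40.0 CPM with AT-0174. MRPS18B had 56.5, 55.4 and 51.7 CPM attached, 59.8, 59.0 and 59.2 CPM suspended and 65.0, 61.1 and 62.1 CPM with AT-0174. Both were higher in every suspended library but missed the threshold against attached cells with vehicle (0.13 ± 0.043, adjusted p = 0.0572, and 0.12 ± 0.042, adjusted p = 0.055). Both lay near it, since they passed with at least 10 counts required in every library (adjusted p = 0.0494 and 0.0443), with library totals as the only scaling (0.0135 and 0.0164), and when suspended vehicle replicate 3 (MRPS18A, 0.03) or attached replicate 1 (MRPS18B, 0.0471) was left out. MRPS18C, the scarcest of the paralogs, had 15.4, 15.7 and 14.8 CPM attached and 15.7, 15.5 and 18.1 CPM suspended, which overlapped (0.10 ± 0.070, adjusted p = 0.334).

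**Figure D4:**
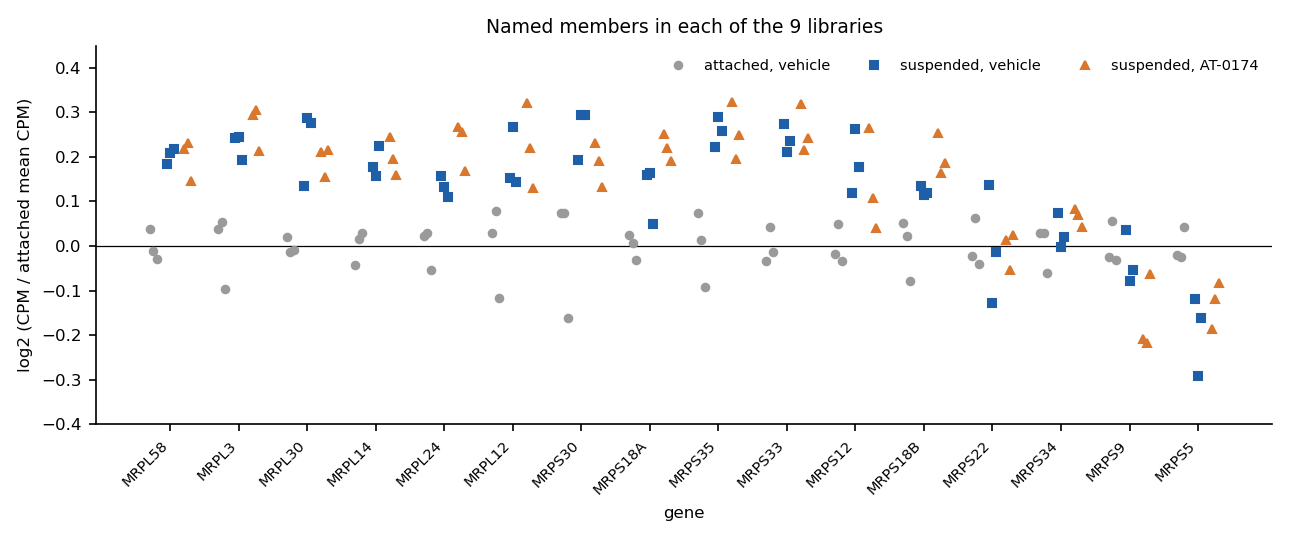
Log2 ratio of each library's CPM to the attached mean for 16 members, with circles for attached vehicle, squares for suspended vehicle and triangles for suspended AT-0174 (3 libraries each). From MRPL58 to MRPS33 the suspended libraries lie above the attached ones, MRPS5 lies below, and the squares and triangles overlap for most genes.

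The second comparison asked whether AT-0174 moved the members in suspended cells. No member was called: 0 of 78 by edgeR, 0 by DESeq2 and 0 by limma-voom, where edgeR called 0.779% of all tested genes (121 genes, 0.522% higher and 0.258% lower). At an unadjusted p under 0.05 there were 3 members by DESeq2, 7 by limma-voom and 8 by edgeR, MRPL23, MRPL24, MRPL36, MRPS11, MRPS17, MRPS18A and MRPS21 with values above 0 and MRPS9 below. By edgeR 1401 of 15528 tested genes were under it, a share close to that of the members. The smallest adjusted p was 0.408, for MRPL24. The median log2 fold change was 0.01 for large and 0.01 for small subunit symbols, with 46 of 78 members above 0, and with library totals as the only scaling 31 were above 0 and the member median was −0.01. The 95% intervals show the range of change left for each member taken alone. They are not adjusted for the number of members, so they do not bound all changes together. Over all members they ran from −0.24 (MRPS9) to 0.27 (MRPL23) on the log2 scale, 77 of 78 lay within a 1.2-fold change in either direction, and 70 included 0. For MRPL58 the interval was −0.08 to 0.07, for MRPL3 −0.05 to 0.13 and for MRPS35 −0.10 to 0.10. Without overlap, 9 members were higher and 3 lower with AT-0174, where the background was 7.75% higher (11.5% of members) and 7.66% lower.

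The third comparison set suspended cells with AT-0174 against attached cells with vehicle. It shares the attached libraries with the first comparison and the AT-0174 libraries with the second, so its values are no separate evidence. Of the 78 members, 30 rose and 1 fell, or 39.7% called, where 24.0% of all tested genes were called (12.2% higher). Among tested genes within the members' range of mean level, 32.5% were called and 17.9% called higher. Large subunit symbols had 21 rises and a median of 0.12, and small subunit symbols had 9 rises, 1 fall and a median of 0.08. The smallest adjusted p values were those of MRPL3 (0.27, adjusted p = 0.000942), MRPL24 (0.23, adjusted p = 0.00111) and MRPL58 (0.20, adjusted p = 0.00133). In 42 of 78 members (53.8%) the AT-0174 libraries all lay above the attached ones, where 20.4% of tested genes did so. MRPS18A (0.22, adjusted p = 0.00324) and MRPS18B (0.20, adjusted p = 0.00428) rose here. MRPS17, scarce in attached cells, had 18.5, 16.9 and 16.9 CPM attached and 19.3, 21.2 and 19.1 CPM with AT-0174 (0.19, adjusted p = 0.0385), a call lost without 5 of the 6 libraries in turn. MRPS9, a bacterial-type small subunit protein, fell by 0.16 (adjusted p = 0.0406), from 34.9, 36.9 and 34.8 CPM to 30.7, 30.6 and 34.02 CPM, and that call too was lost without 5 of the 6 libraries. Without AT-0174 replicate 1, 13 members were called, and without attached replicate 3, 14 were. That is 16.7% of members against 14.2% of tested genes, and 17.9% against 15.1%. All of these member calls were higher, where 7.09% and 7.75% of tested genes were called higher. Both suspended groups together lay above the attached group in 35 of 78 members, where 13.5% of all tested genes did so, and below it in 1, MRPS5, where 12.8% did.

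The other components of mitochondrial translation did not all move with the members in suspension. The rRNAs around which the proteins assemble fell. MT-RNR1 had 697, 710 and 812 CPM attached and 573, 520 and 535 CPM suspended (log2 fold change −0.45, adjusted p = 0.00197), and MT-RNR2 had 3635, 3454 and 4134 CPM attached and 2330, 2451 and 2220 CPM suspended (−0.68, adjusted p = 0.000744). The 13 mRNAs of the mitochondrial genome also fell, 13 of 13, with a median of −1.06. The sources describe mRNA library kits, and how far these capture the mitochondrial rRNAs is not given. With AT-0174 the 2 rRNAs and 13 mRNAs were not called against vehicle (medians 0.13 and 0.17; 1 mRNA at an unadjusted p under 0.05 by edgeR and none by DESeq2 or limma-voom).

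Of the mitoribosomal proteins that carry other names, none passed the threshold. DAP3, PTCD3 and CHCHD1 of the small subunit had log2 fold changes of 0.05, 0.07 and 0.10, AURKAIP1, also of the small subunit, 0.09, and GADD45GIP1 of the large subunit −0.06, with adjusted p between 0.112 and 0.389, so 0 of 5 were called by edgeR, DESeq2 or limma-voom (1 of 5 at an unadjusted p under 0.05 in each). Of 30 assembly factors, 8 rose and 4 fell. FASTKD2, which binds the 16S rRNA (0.27, adjusted p = 0.00435), and DDX28, a helicase of large subunit assembly (0.33, adjusted p = 0.00319), rose most clearly, and the GTPase MTG2 (−0.31, adjusted p = 0.000648) and MTG1 (−0.41, adjusted p = 0.0127) fell. Of 17 tested translation factors and mRNA-binding partners, 3 rose: LRPPRC (0.20, adjusted p = 0.00907), its partner SLIRP (0.15, adjusted p = 0.0295), which together stabilise mitochondrial mRNAs, and TACO1, an activator of MT-CO1 translation (0.17, adjusted p = 0.0215). None was called lower, but 5 had values below 0. At an unadjusted p under 0.05, 1 was lower by edgeR and 0 by DESeq2 or limma-voom. The shares called higher were 26.7% for assembly factors and 17.6% for translation factors. Of all tested genes 10.4% were called higher, and 15.7% of those within the members' range of mean level.

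Nuclear genes for the respiratory chain and ATP synthase, whose products join the proteins made on these ribosomes, had 36 rises and no fall among 77 (median 0.11). Genes for the cytosolic ribosome, which makes the members' proteins, had 64 rises and no fall among 79 (median 0.16). The shares called higher were 46.8% and 81.0%, where 10.4% of all tested genes were. Small rises in suspension were thus also found outside the mitochondrial ribosome, and DESeq2 and limma-voom called no fall in either list. At an unadjusted p under 0.05, each of the 3 tools had 1 respiratory gene lower and 0 cytosolic ribosome genes lower. Values below 0 were found for 9 of 77 respiratory and 3 of 79 cytosolic ribosome genes. With AT-0174 against vehicle, 0 genes of either list were called by edgeR, and DESeq2 called 1 gene of the cytosolic ribosome. At an unadjusted p under 0.05 by edgeR there were 4 of 77 and 21 of 79, where 1401 of 15528 tested genes were. The lists differed in how many of their values lay above 0. Of the respiratory genes 43 of 77 were above 0 (median 0.01), and of the cytosolic ribosome genes 79 of 79 (median 0.06). Of the latter, 31.6% were higher without overlap, where 7.75% of tested genes were.

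**Figure D5:**
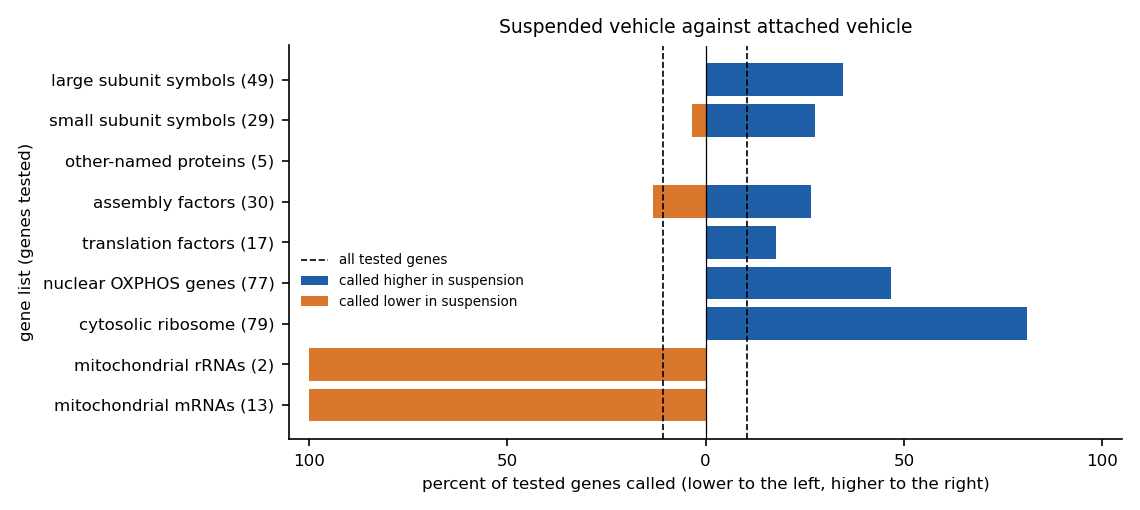
Percent of the tested genes of each list called higher (right, blue) or lower (left, orange) in suspended against attached cells with vehicle, with dashed lines at the shares for all tested genes (10.4% higher, 10.8% lower). The number of genes tested is in brackets after each list, and the lists of 2 and 5 genes are too small for their shares to be compared closely.

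Members and the genes they face across a shared start region did not always go together. NDUFB5, a subunit of complex I that starts 41 bases from MRPL47, rose by 0.18 (adjusted p = 0.00587), and MRPL47 had 0.13 (adjusted p = 0.0668). FAU, a cytosolic ribosomal protein gene 6 bases from MRPL49, rose by 0.15 (adjusted p = 0.00975), and MRPL49 had 0.06 (adjusted p = 0.29). MRPL27 rose by 0.18 (adjusted p = 0.0396), whereas EME1, an endonuclease subunit gene 13 bases away, fell by 0.25 (adjusted p = 0.0419). MRPL30 rose while MITD1, 94 bases away, had −0.26 (adjusted p = 0.133), and MRPS12 rose while the mitochondrial seryl-tRNA synthetase gene SARS2, 181 bases away, had −0.09 (adjusted p = 0.227). MRPL46 and MRPS11, which face each other, had 0.14 (adjusted p = 0.1) and 0.07 (adjusted p = 0.291). TCP1, 109 bases from MRPL18, rose by 0.12 (adjusted p = 0.0201), whereas IGHMBP2, 28 bases from MRPL21, fell by 0.18 (adjusted p = 0.0127). MRPL18 and MRPL21 were both higher in every suspended library than in every attached one. Only some of the 17 members with such a neighbour are described here. The differences within pairs were not tested.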

How the data were processed

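RNA-seq was made from 9 libraries of MDA-MB-453 cells. The labels name a SMARTER kit and the study's methods a Universal Plus mRNA kit. Per the submitters' processing notes and the study's methods, reads were trimmed with Trim Galore 0.6.7 and Cutadapt 3.4, aligned with STAR 2.7.9a to GRCh38 and quantified with Salmon 1.10.1. The authors deposited estimated counts summed by gene, with no normalization, and TPM per transcript, which Salmon divides by effective length and scales to a fixed total.

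Estimated counts were rounded to whole numbers, filtered with filterByExpr (15528 genes kept), scaled by TMM and fitted over all 9 libraries with edgeR 4.0.16 (R 4.3.3), with the group as the only term. A gene was called at a Benjamini-Hochberg adjusted p under 0.05 over all tested genes in the quasi-likelihood test. CPM values use TMM-scaled totals. SE is the standard error of a log2 fold change. Gene TPM sums the transcript values. Alternatives used DESeq2 1.42.0, limma-voom (limma 3.58.1), other scalings and filters, a replicate term, counts rebuilt from TPM, and each library left out. Replicates are described as biological triplicates, with no sequencing batch or separate passages stated, so p-values measure the spread between these libraries.

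Members and gene lists were chosen with earlier results of these data known. Named members were, per comparison, up to 6 rises and 6 falls with the smallest adjusted p, the 3 highest and lowest by attached TPM, and a fixed set: MRPL3, MRPL12, MRPL44, MRPL58, MRPS12, MRPS18A, MRPS18B, MRPS18C, MRPS22, MRPS30 and MRPS36. The other list genes named were all mitoribosomal proteins with other names, both rRNAs, and up to 2 rises and falls per factor list, with SLIRP, MRPL22, the neighbours and the members under an unadjusted p of 0.05 chosen after their values were seen. Positions are from GENCODE release 44 (GRCh38) and promoters from RefSeq (GRCh38.p14).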

Additional observations from a re-analysis of the deposited data

How the results depend on the processing

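No member called in the main analysis (26 in suspended against attached cells, 31 in AT-0174 against attached) changed sign under any alternative. In suspended against attached cells, members called were 25 by DESeq2 and by limma-voom, 26 with DESeq2 size factors or no filter, 29 with at least 10 counts per library and 20 with the 6 libraries of the contrast alone, against 26 in the main analysis. Library totals alone gave 41 and medians of 0.15 (large) and 0.11 (small), counts rebuilt from TPM gave 11 members and 1714 genes, and an adjusted p of 0.01 gave 6 members and 1405 genes. Leaving out 1 library gave 8 to 22 members and 1935 to 2693 genes, 8 without attached replicate 3 and 9 without suspended vehicle replicate 2. For AT-0174 against vehicle every alternative gave 0 members, whereas genes called were 239 by DESeq2, 499 with no filter, 35 from TPM, 52 at 0.01 and 63 to 86 with 1 library left out, against 121. For suspended AT-0174 against attached vehicle, TPM gave 18 members and 2056 genes, an adjusted p of 0.01 gave 12 and 1839, and 1 library left out gave 13 to 31 members and 2239 to 3276 genes. The share of all calls that were higher was 66.9% for AT-0174 against vehicle and 51.0% for AT-0174 against attached, and became 47.7% and 60.9% with library totals alone and 52.8% and 37.3% with totals leaving out the mitochondrial genome, an alternative chosen after seeing the data. The DESeq2, no-filter and TPM splits for AT-0174 against vehicle were 55.6%, 54.7% and 74.3%. The median of large subunit symbols in suspension stayed between 0.08 and 0.15 and that of small ones between 0.04 and 0.11.

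The titles number replicates 1 to 3 in each group. Deviations of same-numbered libraries from their group means correlated between −0.065 and 0.053. These values show no strong effect shared by a number over all genes. They cannot tell whether same-numbered dishes were set up together, which the labels do not state. With the replicate number as a block, 27 members were called in suspended against attached cells, 0 for AT-0174 against vehicle and 28 for AT-0174 against attached. MRPS18A (adjusted p = 0.046) and MRPS18B (0.0492) passed in suspended against attached cells, and MRPS17 (0.0582) and MRPS9 (0.0589) did not in AT-0174 against attached.

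The median standard error of a member's log2 fold change was 0.05, which is over 0.5 times the median change in suspension (0.09).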
